A study of Mus musculus with 6 samples.

Results

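The 10 genes that border the clustered protocadherins of mouse chromosome 18 were followed to see where the change in protocadherin RNA ends when the HUSH component MPP8, encoded by Mphosph8, is lost from the nervous system. The rule that chose the members is their position just outside the cluster: Ik, Wdr55, Dnd1, Hars, Hars2 and Zmat2 on the centromeric side, and Diaph1, Hdac3, Rell2 and Fchsd1 on the telomeric side. They are 10 of the 54532 gene identifiers counted, and on each side they are the tested genes nearest to the cluster. RNA of whole brains at postnatal day 14 was sequenced, with 1 library per brain. On a C57BL/6J background, 3 control brains carried 1 floxed Mphosph8 allele and Nestin-Cre (Mphosph8fl/+ Nestin-Cre+), and 3 mutant brains carried 2 floxed alleles and Nestin-Cre (Mphosph8fl/fl Nestin-Cre+). Both groups therefore held the transgene, in which Nestin elements drive Cre in neural progenitors, so that cells of vessels, blood and microglia in the same brain keep the gene. Where it describes these RNA-seq samples, the study's text gives the controls by the transgene alone; the labels were followed here.

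The clustered protocadherins are cell-surface adhesion proteins that neurons use to tell their own branches from those of other neurons. Their genes stand in alpha, beta and gamma arrays. In the alpha and gamma arrays each variable exon has its own promoter and is spliced to last exons that the array shares, whereas beta genes carry no shared exons, and a neuron uses only some of the promoters. HUSH represses transcription from chromatin that bears histone H3 lysine 9 trimethylation, and its targets are often long exons with few introns. The genes on either side of the arrays belong to other families and are mostly in use in every cell: they serve splicing, transfer RNA charging, ribosome production, the actin skeleton and histone deacetylation.

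Total counts ran from 12956880 to 15223424 per library. Mphosph8 (chromosome 14, 56668248 to 56697430, GRCm38) stood at 55.8, 48.6 and 70.7 CPM (counts per 1000000, scaled to the effective library size) in control replicates 1 to 3 and at 33.1, 27.2 and 26.5 CPM in the mutants, over the whole gene and not the deleted exon alone. The groups did not overlap and the log2 fold change was −1.02 ± 0.12 (SE, 3 against 3 libraries, edgeR quasi-likelihood adjusted p 0.000157). Markers of neurons, astrocytes, microglia, endothelium, choroid plexus and blood had no member past an adjusted p of 0.05, whereas 2 of 8 oligodendrocyte markers, Mog and Cldn11, fell, and all 8 had negative fold changes with a median of −0.47. The summed oligodendrocyte markers ran from 21576 to 25839 CPM in controls and from 17129 to 19850 CPM in mutants, and those of choroid plexus from 1428 to 1721 CPM and from 1054 to 1259 CPM. Most of the choroid plexus sum was Ttr (1498 ± 153 CPM in controls, 1100 ± 102 CPM in mutants, SD, n = 3). All 5 choroid plexus markers had negative fold changes, and only for Ttr did the groups not overlap. The part of both cell types in the values below was not tested. In whole tissue, fewer cells of a type and less RNA per cell cannot be told apart. Control replicate 3 held 3641 counts of Y-linked genes and no other library more than 1, so the sexes were not balanced.

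No change was detected in any of the 10 flanking genes. All 10 passed the filter on low counts, 0 of 10 were called (adjusted p under 0.05 and a fold change over 2), and 0 passed the adjusted p alone, where 0.359% and 0.628% of the 16731 genes tested did so. At an unadjusted p of 0.05, where 6.51% of all genes passed, 0 of 10 passed in edgeR, DESeq2 and limma-voom alike. In all 10 the control and mutant libraries overlapped, whereas the groups of 11.6% of all genes did not. Such counts of 0 are near what the background gives for 10 genes, so the width of each interval says more than the count. The 95% interval of the fold change lay within 1.5-fold either way for 9 of 10 members, with Dnd1 the exception, and within 2-fold for all 10; among all genes tested the shares were 74.3% and 91.5%. The members' median log2 fold change was −0.05, beside −0.01 for all genes, and the median absolute change of all genes was 0.09. The plot of the members by library shows every gene with its 6 values.

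**Figure D1:**
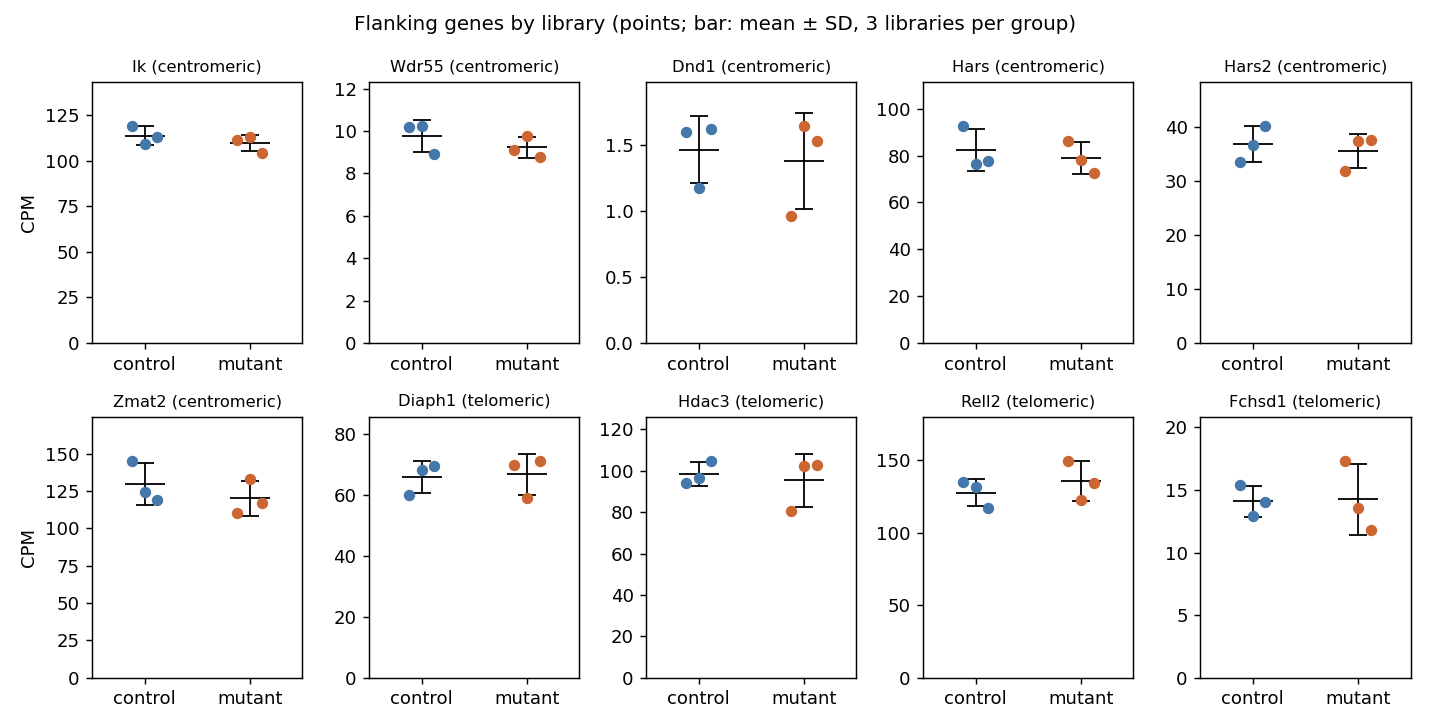
CPM (vertical axis, from 0) of each of the 10 flanking genes in the 3 control and the 3 mutant libraries; points are libraries, and the bar and whiskers are the mean and SD. In all 10 panels the points of the groups overlap, and Dnd1, at 0.96 to 1.64 CPM, has the lowest level.

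On the centromeric side, counted from the far gene towards the cluster, the first was Ik (chromosome 18, 36744656 to 36757639, plus strand, 172.5 kb from the cluster), a spliceosome protein that helps to build the activated complex. Ik stood at 119.1, 108.9 and 112.8 CPM in control replicates 1 to 3 and at 111.1, 112.9 and 104.4 CPM in mutant replicates 1 to 3. The groups overlapped, since mutant replicates 1 and 2 lay within the control range. The log2 fold change was −0.05 ± 0.08 (SE), with a 95% interval from −0.22 to 0.11 and an adjusted p of 0.968. Ik had the smallest spread of the members, with coefficients of variation of 4.52% in controls and 4.099% in mutants.

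Wdr55 (36760220 to 36763810, plus strand), whose WD-repeat protein takes part in making ribosomal RNA, stood at 10.17, 10.25 and 8.91 CPM in the 3 controls and at 9.12, 9.78 and 8.80 CPM in the 3 mutants. All 3 mutants lay below control replicates 1 and 2, and replicates 1 and 2 of the mutants lay above control replicate 3. Its log2 fold change was −0.08 ± 0.13, with an interval from −0.36 to 0.20 (adjusted p 0.977).

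Dnd1 (36763671 to 36766214, minus strand), an RNA-binding protein that primordial germ cells need to survive, was nearly silent in brain, with 24, 16 and 24 counts in controls and 12, 22 and 21 in mutants. These came to 1.596, 1.172 and 1.620 CPM against 0.960, 1.642 and 1.527 CPM, so that both the lowest and the highest library were mutant. The log2 fold change of −0.08 ± 0.30 had an interval from −0.73 to 0.56 (adjusted p 0.990). As a fold, that interval runs from 0.60 to 1.47, the widest of the 10 members.

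Hars and Hars2 lie head to head, with 198 bases in common, and encode the enzymes that charge histidine transfer RNA in the cytosol and in mitochondria. Hars (36766528 to 36783205, minus strand) stood at 92.75, 76.46 and 77.68 CPM in the 3 controls and at 86.12, 77.93 and 72.48 CPM in the 3 mutants. Control replicate 1 was the highest library and the other controls lay within the mutant range. Hars2 (36783008 to 36792562, plus strand) stood at 33.58, 36.69 and 40.22 CPM in the 3 controls and at 31.90, 37.32 and 37.51 CPM in the 3 mutants. Here control replicate 1 was the lowest control, although it had been the highest library for Hars, and the groups overlapped. The log2 fold changes were −0.06 ± 0.09 for Hars, with an interval from −0.26 to 0.13 (adjusted p 0.972), and −0.05 ± 0.10 for Hars2, with an interval from −0.26 to 0.16 (adjusted p 0.984).

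Zmat2 (36793876 to 36799666, plus strand), a zinc finger protein of the spliceosome, was the last tested gene before the alpha array and ended 130.5 kb from it. Its values were 145.4, 124.1 and 119.2 CPM in controls and 110.2, 133.1 and 117.2 CPM in mutants. Mutant replicate 2 lay above control replicates 2 and 3, so the groups overlapped. Zmat2 had the largest of the members' differences, a log2 fold change of −0.11 ± 0.09 with an interval from −0.30 to 0.09 (adjusted p 0.927). All 6 centromeric members had negative fold changes, from −0.11 to −0.05, none past the test, and Dnd1, Hars and Hars2 turned positive when 1 library or another was left out. Summed within a library they came to 373.6 ± 25.2 CPM in controls and 354.7 ± 16.1 CPM in mutants (SD, n = 3), with overlapping groups.

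On the telomeric side the gap was far smaller. Diaph1 (37843601 to 37935476, minus strand), a formin that nucleates actin filaments, ends 1.73 kb beyond the last base of the gamma array. It stood at 60.11, 68.40 and 69.58 CPM in the 3 controls and at 70.04, 59.12 and 71.39 CPM in the 3 mutants. The lowest and the 2 highest libraries were mutant, and the groups overlapped. The log2 fold change was 0.02 ± 0.09, with an interval from −0.17 to 0.21 (adjusted p 0.994).

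Hdac3 (37935844 to 37955016, minus strand, 93.97 kb from the cluster) encodes the deacetylase of the NCoR and SMRT corepressors on the same strand as Diaph1, ending 367 bases before that gene begins. It stood at 94.08, 96.60 and 104.9 CPM in the 3 controls and at 80.76, 102.5 and 102.8 CPM in the 3 mutants. Only mutant replicate 1 lay below the control range. The log2 fold change was −0.05 ± 0.09, with an interval from −0.24 to 0.15 (adjusted p 0.984).

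Rell2 (37955079 to 37959179, plus strand) is a membrane protein related to the tumor necrosis factor receptor RELT, and begins 62 bases from Hdac3 in the opposite direction. It stood at 134.8, 131.5 and 117.0 CPM in the 3 controls and at 149.9, 122.3 and 134.5 CPM in the 3 mutants. Mutant replicate 1, the lowest library for Hdac3, was the highest for Rell2, and the groups overlapped. Its log2 fold change was 0.09 ± 0.09, with an interval from −0.10 to 0.27 (adjusted p 0.947).

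Fchsd1 (37957431 to 37969774, minus strand), an F-BAR and SH3 domain protein that binds membranes and actin regulators, shares 1482 exonic bases with Rell2 on the other strand. It stood at 15.36, 12.89 and 14.04 CPM in the 3 controls and at 17.35, 13.59 and 11.78 CPM in the 3 mutants, where the highest and the lowest library were both mutant. Its log2 fold change was 0.01 ± 0.14, with an interval from −0.28 to 0.30 (adjusted p 0.997). Summed, the 4 telomeric members came to 306.5 ± 2.64 CPM in controls and 312.0 ± 12.6 CPM in mutants (SD, n = 3).

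No library was the lowest or the highest for all members. Mutant replicates 1, 2 and 3 were the lowest library for 4, 1 and 4 members, and control replicates 1, 2 and 3 for 0, 0 and 1. The same mutants were the highest library for 2, 1 and 1 members, and the same controls for 3, 1 and 2. The 10 genes together summed to 680.0 ± 23.4 CPM in controls and 666.7 ± 3.97 CPM in mutants (SD, n = 3). Control replicate 1 had the highest sum, 707.0 CPM, and the other libraries ran from 662.4 to 670.2 CPM.

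**Figure D2:**
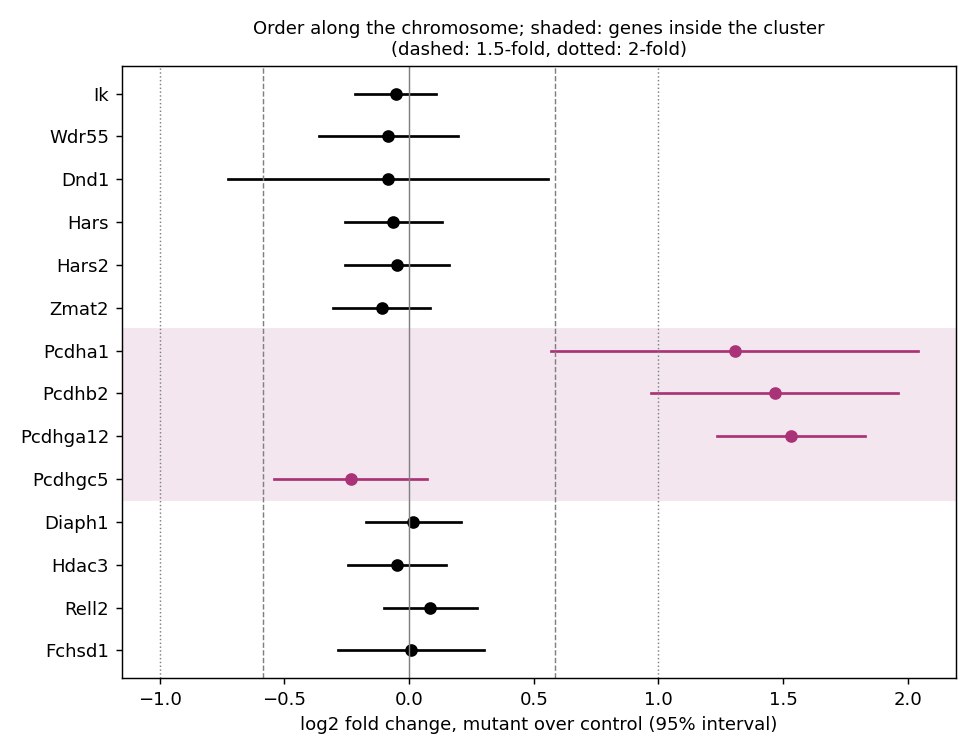
Log2 fold change of mutant over control (points) with its 95% interval (lines) for the 10 flanking genes in black and, shaded, 4 genes inside the cluster, in order along the chromosome from top to bottom; dashed and dotted lines mark 1.5-fold and 2-fold. The black intervals and that of Pcdhgc5 cross 0, and those of Pcdha1, Pcdhb2 and Pcdhga12 lie wholly above 0. Pcdhb2 and Pcdhga12 were chosen as called genes.

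Between Zmat2 and the alpha array 3 genes are annotated, with 10 counts in all over the 6 libraries, and between the gamma array and Diaph1 there is none. Inside the cluster, from 36930184 to 37841873, the calls were far denser: 23 of the 60 genes tested were called, all higher in the mutants, among them 21 of 56 protocadherins, and the median log2 fold change of the 60 was 0.72. Since alpha and gamma genes share their last exons, inside genes were placed by their lowest coordinate, which is the first base of a plus-strand gene. Only reads in a gene's own exons were counted for it.

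The outermost alpha gene, Pcdha1, begins at the cluster's end. Its controls averaged 0.99 ± 0.03 CPM and its mutants 2.47 ± 1.17 CPM (SD over 3 libraries each). The log2 fold change of 1.31 ± 0.35 did not pass adjustment (adjusted p 0.146). Its interval, from 0.57 to 2.04, did not meet that of Zmat2. The outermost gene past the adjusted p was Pcdha12, 89.97 kb inside, and it fell (log2 fold change −0.93, adjusted p 0.0173). The outermost called gene was Pcdhb2 of the beta array, which rose with a log2 fold change of 1.47 ± 0.23 (adjusted p 0.00291) and lies 364.6 kb inside and 495.1 kb from Zmat2, past 13 tested alpha genes that were not called. Of these 13, 10 had positive fold changes, 7 had all mutants above all controls and an unadjusted p under 0.05, and the median log2 fold change was 0.57. The negative ones, Pcdha12, Pcdhac1 (−0.62) and Pcdhac2 (−0.29), stand nearest the beta array, and 2 of them had an unadjusted p under 0.05. The alpha array was thus mostly higher in value at its outer end, without a rise that passed adjustment.

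On the telomeric side the outermost gene was Pcdhgc5, 22.36 kb inside and 24.09 kb from Diaph1, with a log2 fold change of −0.23 ± 0.15 (interval from −0.54 to 0.07, adjusted p 0.894). Next to it Pcdhgc4, 26.79 kb inside, fell with a log2 fold change of −0.80 ± 0.14 (adjusted p 0.00723). By lowest coordinate the outermost called gene was Pcdhga12, 76.29 kb inside and 78.02 kb from Diaph1. It rose from 15.98 to 46.15 CPM (log2 fold change 1.53 ± 0.14, adjusted p 4.915e-06). Gm26672, named after its value was seen, is a called minus-strand gene from 37746559 to 37768242 (log2 fold change 1.16, adjusted p 0.000332). Its first transcribed base thus lies nearer to Diaph1 than that of Pcdhga12, at 37765580. Between the lowest coordinates of Pcdhb2 and Pcdhga12 and the flanking genes thus lay 495.1 kb on the centromeric and 78.02 kb on the telomeric side. Genes past the adjusted p in the other direction began in between: Pcdha12 on the centromeric side, and Pcdhgc4 and Pcdhgc3 on the telomeric side. Pcdhgc3, named after its value was seen, fell from 164.8 ± 10.5 to 122.8 ± 16.2 CPM (SD over 3 libraries each). Its log2 fold change was −0.42 ± 0.09 (adjusted p 0.0437). The annotated transcripts of Pcdhga12 themselves run on to the shared gamma exons at the cluster's end, 1.73 kb from Diaph1, and its counts do not cover those exons.

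**Figure D3:**
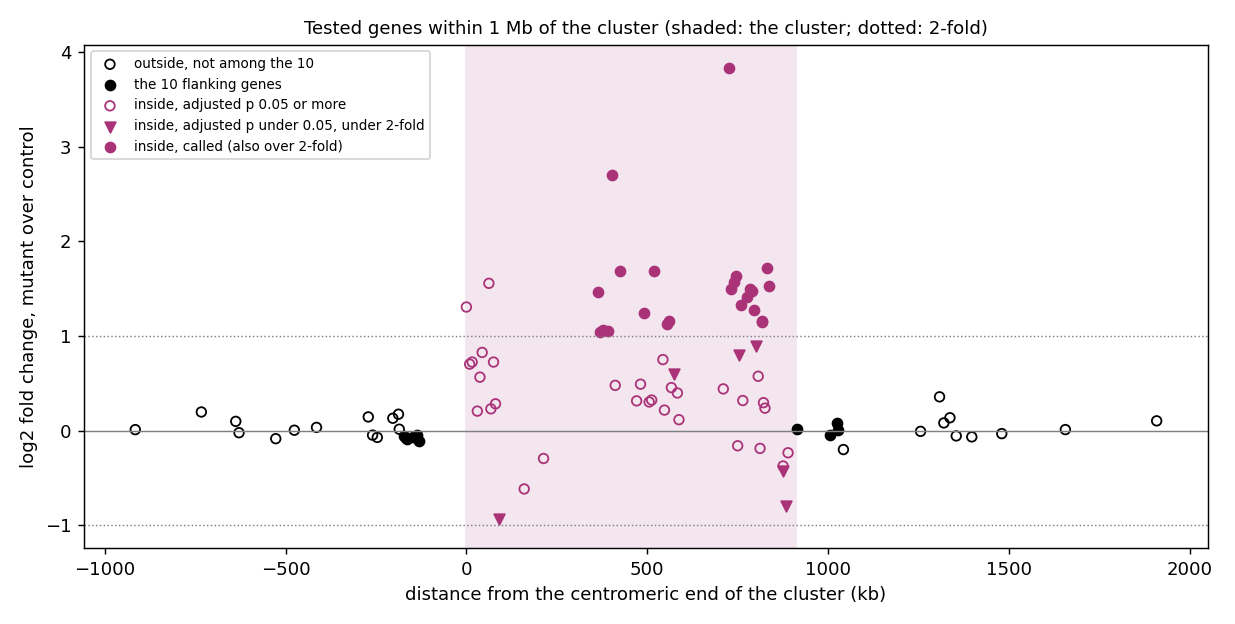
Log2 fold change of mutant over control (vertical axis) against distance from the centromeric end of the cluster in kb (horizontal axis; the cluster is shaded) for the tested genes inside it and within 1 Mb on either side. The 33 genes outside, the 10 flanking genes in black, lie between −0.20 and 0.36. Called genes inside, placed by their lowest coordinate, begin 364.6 kb from the left end. The last of them, so placed, stands 76.29 kb before the right end.

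The step across each end was also measured within libraries, as the log2 ratio of the outside gene's count to the inside gene's, which does not depend on scaling. For Zmat2 over Pcdha1 the ratios were 7.14, 6.97 and 6.83 in control replicates 1 to 3 and 4.92, 6.67 and 5.51 in mutant replicates 1 to 3. The groups did not overlap, though mutant replicate 2 came close to the controls, and the means differed by −1.28 (6.98 ± 0.15 against 5.70 ± 0.89, SD; exact two-sided permutation p 0.1, the smallest that 3 against 3 libraries can give). Zmat2 over Pcdhb2 differed by −1.55 (6.32 ± 0.27 against 4.77 ± 0.40), again with no overlap; Pcdhb2 was chosen because it was called, so this lower ratio is a description and carries no test. For Diaph1 over Pcdhgc5 the ratios were 1.23, 1.08 and 1.06 in controls and 1.07, 1.55 and 1.55 in mutants. Here the groups overlapped, with a difference of 0.27 (1.12 ± 0.09 against 1.39 ± 0.27, exact permutation p 0.3), which was 0.43 without mutant replicate 1. For Diaph1 over Pcdhga12 they did not overlap and the difference was −1.52 (2.06 ± 0.21 against 0.54 ± 0.17), again a description, since Pcdhga12 too was chosen as a called gene. Neither test can reach 0.05 with these numbers of libraries.

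**Figure D4:**
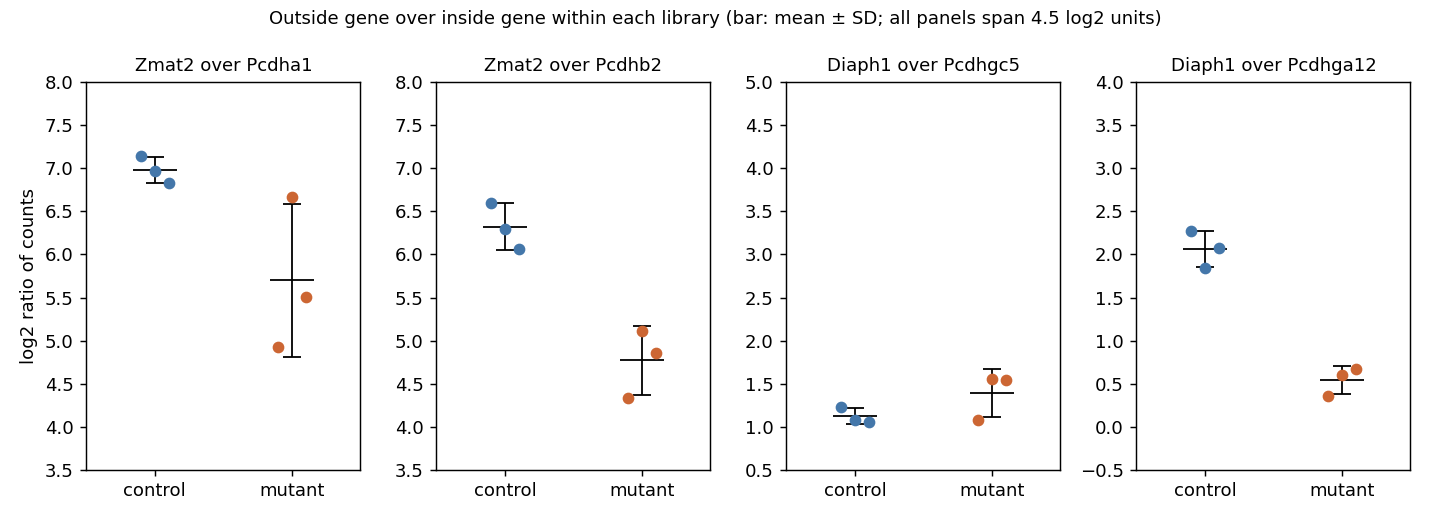
Log2 ratio of counts, within each library, of the nearest flanking gene over a gene inside the cluster, for 3 control and 3 mutant libraries (points; the bar and whiskers are the mean and SD). The ratio is lower in all 3 mutants for Zmat2 over Pcdha1, Zmat2 over Pcdhb2 and Diaph1 over Pcdhga12, and overlaps between groups for Diaph1 over Pcdhgc5, where the means are 1.12 and 1.39; Pcdhb2 and Pcdhga12 were chosen as called genes.

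Farther out no gene was called either. Within 1 Mb of either end 33 genes were tested, 19 centromeric and 14 telomeric, and 0 were called or past the adjusted p in edgeR, with 0 also under an unadjusted p of 0.05. The groups of 3 of the 33 did not overlap, 2 with mutants higher and 1 with mutants lower, where 6.23% and 5.42% of all genes were so placed. The smallest p and the largest change of the 23 that are not members both belonged to 1700086O06Rik, 396.5 kb beyond the telomeric end, with a control mean of 4.04 ± 0.14 CPM and a mutant mean of 5.17 ± 0.68 CPM (SD, n = 3; log2 fold change 0.36 ± 0.18, adjusted p 0.804). The first gene beyond Fchsd1, Arap3, had a log2 fold change of −0.20 ± 0.10 (adjusted p 0.807) and was named after its value was seen. Pcdh1 and Pcdh12, protocadherins that stand outside the arrays 344.0 and 425.2 kb beyond the telomeric end, had values of −0.01 ± 0.09 and 0.14 ± 0.16 (adjusted p 0.997 and 0.959; also named after their values were seen). Of the 389 genes tested on chromosome 18 outside the cluster, the 33 included, 0 were called by edgeR, 22 had an unadjusted p under 0.05 and 1 passed the adjusted p: Gm10524, at 82692284, 44.85 Mb beyond the telomeric end with 214 tested genes between, rose from 6.004 ± 0.248 to 10.004 ± 0.678 CPM (SD, n = 3) (log2 fold change 0.74 ± 0.14, adjusted p 0.0156). On the centromeric side none of 158 passed.

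The build and level of the members had not been used to choose them. They have from 4 to 29 exons in the annotated transcript with the most exons, with a median of 13, and none is a single-exon gene; their longest exons measure from 426 to 2340 bases. Over 16721 tested genes the medians were 8 exons and 2036 bases for the longest exon, beside 13 and 1640.5 for the members. The 58 clustered protocadherins have from 1 to 6 exons, 18 of them a single exon. Their longest exons measure from 2499 to 8695 bases, a range that does not meet that of the members. Exons shared within an array are included: Pcdha6 and Pcdha7 have longest exons of 2712 bases but 2285 and 2139 exonic bases of their own. The 23 called genes inside have from 1 to 4 exons, and 8 of them a single exon. No test was made of these differences. Per kilobase of exon, control levels of the members ran from Zmat2 at 49.99 CPM per kb through Rell2 (38.3), Hars (33.6), Ik (31.3), Hdac3 (24.3), Diaph1 (10.4), Hars2 (8.61), Wdr55 (5.33) and Fchsd1 (2.58) to Dnd1 at 0.61 CPM per kb. Among these neighbours the control libraries of Rell2 and Hars and of Hars and Ik overlapped, and the others did not. Zmat2 stood at the 95.2 percentile of the 16720 tested genes with a length and Dnd1 at the 11.5 percentile. The tested protocadherins of the cluster had a median of 1.70 CPM per kb, from 0.27 for Pcdha8 to 48.8 for Pcdhgc3. The next highest after Pcdhgc3 was Pcdhac2 at 8.57 CPM per kb, below Zmat2, Rell2, Hars, Ik, Hdac3 and Diaph1. Most members thus had a higher mean level than any of these protocadherins except Pcdhgc3.

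To see whether genes of the same function moved, each member was set beside its relatives elsewhere in the genome. Of all genes tested, 52.4% had negative and 47.6% positive fold changes; the numbers of signs below were not tested against these shares. None of these lists held a gene that was called or past the adjusted p in edgeR, 3 of the 117 related genes had an unadjusted p under 0.05, and none was called in DESeq2 or limma-voom. The genes named in this paragraph were chosen after their values were seen. The 19 other cytosolic aminoacyl-tRNA synthetases centred on a log2 fold change of −0.05 (median), 16 of them negative, beside −0.06 for Hars; the lowest was Iars, the isoleucine enzyme, at −0.20 ± 0.08 (adjusted p 0.664). The 16 other mitochondrial synthetases had a median of 0.02, beside −0.05 for Hars2. Among 20 other proteins of the tri-snRNP and B complex of the spliceosome 18 were negative, with a median of −0.05, beside −0.05 for Ik and −0.11 for Zmat2. For 14 other WD-repeat proteins of ribosome production the median was −0.04, beside −0.08 for Wdr55.

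For Dnd1 the relatives lay on the other side of 0. All 7 other germ-cell RNA regulators tested had positive fold changes, with a median of 0.33 against −0.08 for Dnd1, although none passed. The smallest adjusted p among them, 0.360, belonged to Nanos1 (22.9 ± 3.20 CPM in controls, 28.8 ± 1.33 CPM in mutants, SD, n = 3; log2 fold change 0.33 ± 0.11), and the largest change to Nanos2, a translational repressor of the male germ line, at 0.61 ± 0.30 (adjusted p 0.801). Most of this list was near 1 CPM, as Dnd1 was. On the telomeric side the medians were 0.06 for 13 other formins, −0.05 for 8 other proteins of the HDAC3 corepressor or class I deacetylases, −0.08 for Relt and Rell1, and 0.02 for 18 other F-BAR proteins, of which Pacsin2 was the lowest at −0.21 ± 0.09 (adjusted p 0.623).

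**Figure D5:**
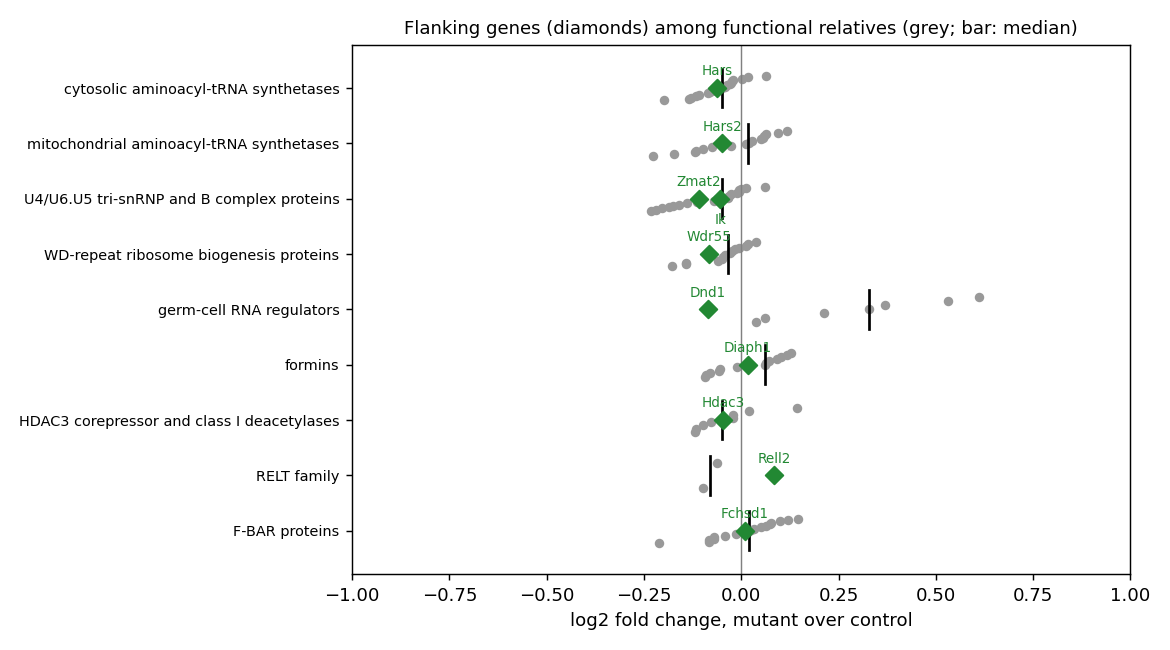
Log2 fold change of mutant over control (horizontal axis) for each flanking gene (labelled diamonds) and for its tested relatives elsewhere in the genome (grey points, spread vertically for clarity; the bar is their median), 1 row per list. No point passed an adjusted p of 0.05, and Dnd1 at −0.08 lies below all 7 of its relatives.

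The genes most like Zmat2 and Diaph1 over the 6 libraries were found by the root mean square difference of centred log2 CPM, as a description. For Zmat2 they were Ndufb3 (0.0152), Hint1 (0.0188) and Etfrf1 (0.0232), where the median of all genes was 0.186 and the nearest member was Wdr55 (0.0883). For Diaph1 they included Pcnx3 (0.0267) and Notch1 (0.0284), where the median was 0.179 and the nearest member Rell2 (0.136). With 6 libraries that share their depth and scaling, such likeness says no more than that these values moved together.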

How the data were processed

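The authors sequenced polyA-selected RNA of 6 brains as single reads of 50 bases, trimmed them with Trim Galore 0.5.0, removed ribosomal, mitochondrial, phiX and adapter reads with Bowtie2 2.3.4.1, aligned the rest to GRCm38 with STAR and assigned reads to genes with featureCounts (Subread 1.6.2). The deposited values are raw counts per Ensembl gene, not normalised, with 12956880 to 15223424 per library. The strand setting is not given in the sources used here. Of 454 genes lying wholly opposite exons of the other strand 27.5% had at least 10 counts, against 33.5% of 42753 genes without overlap, so the counts behaved as if strand was used; this bears on Hars and Hars2 (195 shared exonic bases), Wdr55 and Dnd1 (140) and Rell2 and Fchsd1 (1482).

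Positions and symbols came from GENCODE M21 (GRCm38), which matched 54495 of 54532 identifiers. Every count was fitted with edgeR 4.0.16 (R 4.3.3; filterByExpr, TMM, quasi-likelihood F test, genotype as the only term), with Benjamini-Hochberg adjustment over 16731 genes. Intervals and standard errors came from the F statistic. Boundary ratios used counts plus 0.5. Replicates were separate brains; those of a group differed beyond sampling noise (chi-square per degree of freedom 3.42 to 12.3). At most 0.755% of a member's 50-base words (Ik) occurred in transcripts of another gene, and Hars and Hars2 shared none. Words were compared in the sense direction only, so the bases that members share with genes on the other strand are not covered.

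Named were all 10 members, Mphosph8, the outermost tested, significant and called genes inside the cluster, the nearest significant genes outside it, the non-members within 1 Mb with the smallest p and the largest change, significant list genes, and the 3 genes most like Zmat2 and Diaph1, 1 of which is not reported here. The members and the lists were chosen with earlier results of these data known. Sequences of this region were not used here.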

Additional observations from a re-analysis of the deposited data

How the results depend on the processing

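The fit was repeated with RLE size factors, DESeq2 1.42.0, limma-voom 3.58.1, no low-count filter, a minimum of 1 CPM in 3 libraries, protein-coding genes only, the replicate block and each library left out in turn, 13 fits in all. The numbers of members, of genes within 1 Mb and of related genes called were 0 in every one, while the number of all genes called ran from 43 to 96. Over 130 values of the members the largest was −0.23 in size and the smallest adjusted p 0.687. In 12 of them the sign turned, always within error: Fchsd1 was −0.0091 in limma-voom, and the other 11 came from leaving out a library. With 1 library left out, the log2 fold changes ran from −0.23 to 0.11 for Dnd1, from −0.13 to 0.031 for Hars, from −0.11 to 0.022 for Hars2, from −0.047 to 0.098 for Diaph1, from −0.11 to 0.058 for Hdac3 and from −0.16 to 0.13 for Fchsd1, and the other 4 members kept their sign. Without mutant replicate 1 Dnd1 was 0.11, Hars2 0.022, Diaph1 −0.017, Hdac3 0.058 and Fchsd1 −0.16. Mphosph8 ran from −1.13 to −0.85, the centromeric boundary ratio from −1.77 to −0.89 and the telomeric one from 0.19 to 0.43; with the nearest called gene inside, Pcdhga12, in place of Pcdhgc5 the telomeric difference was −1.52. The replicate numbers did not pair the samples (correlations of 0.10, −0.05 and 0.08). With the replicate block Mphosph8 was −1.004 and the boundary differences were −1.28 and 0.27. No member, gene within 1 Mb or related gene was called with it, while 62 of all genes were, against 60 in the main fit. Depth limits Dnd1 above all, which had 12 to 24 counts per library; the other members had at least 114.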
